A study of Mus musculus with 9 samples.

Results

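The genes described here are the 6 mouse enzymes that write or remove methyl groups on DNA, namely the DNA methyltransferases Dnmt1, Dnmt3a and Dnmt3b and the TET dioxygenases Tet1, Tet2 and Tet3. They were chosen by symbol from a table of PRO-seq counts over the bodies of 24391 genes, and all 6 were found. Their regulatory elements were taken from a table of 42114 dREG elements by the name of the overlapped gene or of the nearest start, which gave 36 elements. PRO-seq maps engaged RNA polymerase by a nuclear run-on, so its counts report transcription and not the amount of mRNA or protein. dREG finds sites of polymerase initiation, which include promoters and enhancers, from such data.

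The cells were G1E-ER4 and G1E, mouse erythroid lines grown in medium with epoetin and kit ligand. G1E cells come from Gata1-null embryonic stem cells, and G1E-ER4 is a clone of them that expresses GATA1-ER, a fusion of the transcription factor GATA1 to an estrogen receptor domain. Estradiol switches the fusion on, and the cells then mature along the red cell lineage. The 9 libraries form 4 groups, which are G1E-ER4 without estradiol (0 h, n = 3), with 100 nM estradiol for 13 h (n = 2) or 24 h (n = 2), and untreated G1E without the fusion (n = 2). Each line stands for a single clone, and the labels do not say that replicates were separate cultures, so the p-values measure only the spread between these libraries.

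DNA methylation in mammals lies mostly on cytosines of CG dinucleotides. Dnmt1 copies the existing pattern onto the new strand after replication, while Dnmt3a and Dnmt3b place methyl groups on unmethylated sites. The TET enzymes use 2-oxoglutarate and oxygen to oxidise 5-methylcytosine, the first step of its active removal. Total DNA methylation is known to fall during maturation of mouse red cell precursors, and TET2 is often mutated in human myeloid disease.

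Gene-body totals ran from 37830789 to 139945759 counts per library and element totals from 15394427 to 59952454, with the second G1E library the shallowest. Levels are given in CPM (counts scaled to a fixed library total) after TMM scaling, a correction for library composition, and they are not divided by gene length, so they are compared between groups and not between genes. The summed level of all 7 erythroid markers ran from 257 to 320 CPM at 0 h, from 507 to 677 CPM at 13 h and from 1585 to 1853 CPM at 24 h. Most of the 0 h sum was Gata1, with a mean of 215 CPM. The markers did not rise evenly, and Epor averaged 22.6 CPM at 0 h, 16.9 CPM at 13 h and 25.7 CPM at 24 h. Lymphocyte markers stayed at or below 1.38 CPM in all libraries, and granulocyte markers at or below 0.230 CPM, with S100a8 and S100a9 at 0 reads throughout. Gata1 gene-body reads were present in G1E cells, at 164 and 214 CPM, and which stretch of the gene is altered there is not given in the labels, so they do not check the genotype.

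The start regions of the 4 transcribed members are shown because the start elements measured below lie there. Each is the RefSeq promoter in build GRCm38.p6, from 250 bases before the start to 50 after it, written 5′ to 3′ on the strand of the gene with CG dinucleotides in capitals. Dnmt1 lies at chr9:20952574-20952873 on the minus strand, Dnmt3b at chr2:153649199-153649498 on the plus strand, Tet2 at chr3:133544341-133544640 on the minus strand and Tet3 at chr6:83441629-83441928 on the minus strand.
Dnmt1: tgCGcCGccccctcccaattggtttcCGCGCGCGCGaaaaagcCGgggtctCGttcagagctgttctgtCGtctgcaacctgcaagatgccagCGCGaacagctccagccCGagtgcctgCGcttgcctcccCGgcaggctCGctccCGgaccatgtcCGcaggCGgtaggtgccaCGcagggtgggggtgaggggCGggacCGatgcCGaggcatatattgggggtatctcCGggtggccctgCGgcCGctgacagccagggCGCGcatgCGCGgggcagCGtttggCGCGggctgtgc
Dnmt3b: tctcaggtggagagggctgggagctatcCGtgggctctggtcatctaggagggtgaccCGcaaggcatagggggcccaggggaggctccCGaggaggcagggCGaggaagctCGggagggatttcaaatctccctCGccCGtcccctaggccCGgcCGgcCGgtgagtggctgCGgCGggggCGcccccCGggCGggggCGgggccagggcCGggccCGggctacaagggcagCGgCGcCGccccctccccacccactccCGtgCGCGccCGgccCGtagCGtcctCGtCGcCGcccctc
Tet2: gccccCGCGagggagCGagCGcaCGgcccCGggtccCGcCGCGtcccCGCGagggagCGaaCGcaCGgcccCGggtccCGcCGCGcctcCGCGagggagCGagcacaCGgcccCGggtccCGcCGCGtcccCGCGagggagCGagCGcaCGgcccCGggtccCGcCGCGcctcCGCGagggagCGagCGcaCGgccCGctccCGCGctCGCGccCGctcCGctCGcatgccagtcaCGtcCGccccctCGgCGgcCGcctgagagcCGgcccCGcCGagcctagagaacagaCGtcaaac
Tet3: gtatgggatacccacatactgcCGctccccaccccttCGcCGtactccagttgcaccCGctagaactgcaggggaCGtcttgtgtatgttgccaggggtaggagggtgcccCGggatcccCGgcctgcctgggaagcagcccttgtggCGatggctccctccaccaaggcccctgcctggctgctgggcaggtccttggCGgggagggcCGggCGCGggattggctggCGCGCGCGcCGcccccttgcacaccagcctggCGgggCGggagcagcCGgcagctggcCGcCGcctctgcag

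All 6 symbols matched a RefSeq promoter. RefSeq lists 3 Dnmt1 promoters, and the one printed is the most downstream of them, since the outermost starts lie 7265 bases apart in RefSeq as do the deposited mm9 starts, of which the downstream one sits in the Dnmt1 start element. The Tet2 promoter held 57 CG dinucleotides, the printed Dnmt1 promoter 33, the Dnmt3b promoter 30 and the Tet3 promoter 22, against a median of 7 over 32851 mouse promoters of this length. The other RefSeq promoters of Dnmt1 held 12 and 2. Only 0.152% of all promoters held as many as Tet2, against 23.1% for Tet3, 11.7% for Dnmt3b and 8.56% for Dnmt1. So all 4 printed promoters are CG-rich, and Tet2 is at the far end of the range.

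Letter matches were searched on both strands. None of the 4 printed promoters held a GATA word (AGATAA, its variant ending in G, or the same words beginning with T), which 29.8% of all promoters hold. The upstream RefSeq promoter of Dnmt1 (chr9:20959839-20960138, GRCm38.p6), not printed, held 1. The printed Dnmt1 promoter held 2 E2F words, TTTCGCGC on the opposite strand beginning 219 bases before the start and TTTGGCGC on the gene strand beginning 33 bases after it, whereas 0.813% of all promoters hold either word. These 2 matches overlap no other searched word. The other RefSeq promoters of Dnmt1 each held 0 E2F words, so both positions are relative to the most downstream start. The GC box word GGGCGG occurred in all 4 promoters and in 35.7% of all promoters, and the KLF word CCNCNCCC occurred in all 4 and in 49.5% of all promoters, and some of these matches overlap each other. A match is a description of letters and says nothing about whether a factor was bound.

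Dnmt1 transcription fell late in the time course. Its gene-body level was 350, 339 and 320 CPM at 0 h, 292 and 286 CPM at 13 h, 174 and 110 CPM at 24 h, and 304 and 369 CPM in G1E cells. Both 24 h libraries lay below every other library, while the 13 h libraries lay just under those of 0 h. The level averaged 142 ± 44.9 CPM at 24 h (SD, n = 2) and 336 ± 15.3 CPM at 0 h (SD, n = 3), a log2 fold change of -1.24 ± 0.18 (SE) with an adjusted p of 2.32e-04 in edgeR's quasi-likelihood test. At 13 h against 0 h the difference was -0.22 ± 0.18 and did not pass the threshold of 0.05 (adjusted p = 0.352, edgeR). At 24 h against 13 h it fell, with a log2 fold change of -1.02 ± 0.20 (adjusted p = 0.00607, edgeR), and 0 h cells differed from G1E cells by -0.0017 ± 0.18 (adjusted p = 0.997, edgeR). In a bulk measurement fewer cells that transcribe a gene and less transcription per cell cannot be told apart.

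Dnmt3b transcription fell at both times. Its gene-body level was 34.9, 36.8 and 40.2 CPM at 0 h, 14.2 and 17.3 CPM at 13 h, 8.08 and 3.59 CPM at 24 h, and 57.6 and 48.0 CPM in G1E cells. The 4 groups did not overlap, with G1E highest and 24 h lowest. The log2 fold change was -1.25 ± 0.29 (SE) at 13 h against 0 h (adjusted p = 0.00698, edgeR), and -2.68 ± 0.31 at 24 h against 0 h (adjusted p = 5.00e-05, edgeR), which is a 6.40-fold lower level. Between 13 h and 24 h it fell further, by 1.43 ± 0.32 on the log2 scale at 24 h against 13 h (adjusted p = 0.0110, edgeR). The 13 h call was lost without 13 h replicate 1, where the log2 fold change was -1.09 with an adjusted p of 0.0619 (edgeR). The lower mean of 37.3 ± 2.67 CPM at 0 h (SD, n = 3) against 52.8 ± 6.78 CPM in G1E cells (SD, n = 2) was not called (log2 fold change -0.50 ± 0.28, adjusted p = 0.271, edgeR).

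Libraries with neighbouring title numbers may have been made together, which the labels do not say. Within such runs Dnmt3b differed by -1.30 and -1.09 on the log2 scale at 13 h against 0 h, with 1 library on each side, and by -2.78 at 24 h against 0 h. Dnmt1 differed within its run by -1.17 at 24 h against 0 h. No run holds both 13 h and 24 h libraries, and with the run as a block the calls at 24 h against 13 h were lost for Dnmt1 (log2 fold change -0.91, adjusted p = 0.171, edgeR) and Dnmt3b (log2 fold change -1.59, adjusted p = 0.151, edgeR) at similar sizes, and that of Dnmt3b also without 13 h replicate 2 (adjusted p = 0.0512, edgeR). Mast cell and macrophage markers moved in the same direction as these 2 genes, while the megakaryocyte and lymphocyte sums overlapped between 24 h and 0 h. The summed level of 4 mast cell markers (Cpa3, Ms4a2, Kit and Gata2) was 659 to 876 CPM at 0 h, 221 to 334 CPM at 13 h, 59.1 to 140 CPM at 24 h and 1017 to 1534 CPM in G1E cells, and Ms4a2 was at 0 reads at 24 h. Most of this sum was Kit, at 474 to 609 CPM at 0 h. The sum of the 3 macrophage markers in the table, nearly all of it Cd68, was 125 to 198 CPM at 0 h and 31.9 to 38.4 CPM at 24 h, with Csf1r at most 0.0678 CPM in any library. The part of these changes in the Dnmt1 and Dnmt3b results was not tested.

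Dnmt3a and Tet1 were almost silent in these cells. Dnmt3a had 5, 9 and 8 gene-body reads at 0 h, 0 and 6 at 13 h, 2 and 7 at 24 h, and 21 and 18 in G1E cells. Tet1 had 11, 9 and 21 reads at 0 h, 1 and 9 at 13 h, 3 and 1 at 24 h, and 57 and 14 in G1E cells. Per library size both were highest in the G1E libraries, with 0.210 and 0.435 CPM of Dnmt3a and 0.571 and 0.338 CPM of Tet1, and neither had an element at its start in the table. Tet1 was called lower at 24 h against 0 h (log2 fold change -2.31 ± 0.84, adjusted p = 0.0362, edgeR), but this rests on 4 reads at 24 h against 41 at 0 h. The call was lost when any of the 0 h or 24 h libraries was left out (adjusted p between 0.0511 without 0 h replicate 2 and 0.215 without 24 h replicate 2, edgeR) and in DESeq2 (adjusted p = 0.0651). At 0 h against G1E the log2 difference was -1.78 ± 0.59 for Tet1 and was not called (adjusted p = 0.0681, edgeR). For Dnmt3a it was -2.01 ± 0.77 and was not called either. Dnmt3a had enough reads for the test only through the G1E libraries, where it is high, so its test is not read.

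Tet2 was not called in any of the 4 comparisons. Its gene-body level was 83.3, 96.6 and 95.6 CPM at 0 h, 72.0 and 71.7 CPM at 13 h, 114 and 93.6 CPM at 24 h, and 103 and 72.3 CPM in G1E cells. The 13 h libraries were the lowest of all 9, and the 24 h libraries overlapped those of 0 h. At 24 h against 0 h the log2 difference was 0.17 ± 0.17 (adjusted p = 0.396, edgeR), and it was -0.21 when libraries were scaled by total counts, a scaling that moved the median of all genes by -0.39 in this comparison. At 13 h against 0 h it was -0.35 ± 0.17 (adjusted p = 0.124, edgeR). The 24 h level was 0.53 ± 0.19 above that of 13 h without passing the threshold (adjusted p = 0.0631, edgeR), and DESeq2 called this difference (adjusted p = 0.0290).

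Tet3 was not called in any comparison either, and its libraries spread widely within groups. Its gene-body level was 249, 380 and 348 CPM at 0 h, 186 and 250 CPM at 13 h, 270 and 165 CPM at 24 h, and 308 and 234 CPM in G1E cells. The lowest 0 h library lay among those of 13 h and 24 h. The log2 difference was -0.58 ± 0.25 both at 13 h (adjusted p = 0.0901, edgeR) and at 24 h (adjusted p = 0.0688, edgeR) against 0 h, and neither was called. Without 0 h replicate 1 both were called (adjusted p = 0.0398 at 13 h and 0.0278 at 24 h, edgeR), as was 24 h without its replicate 1 (adjusted p = 0.0131, edgeR).

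**Figure D1:**
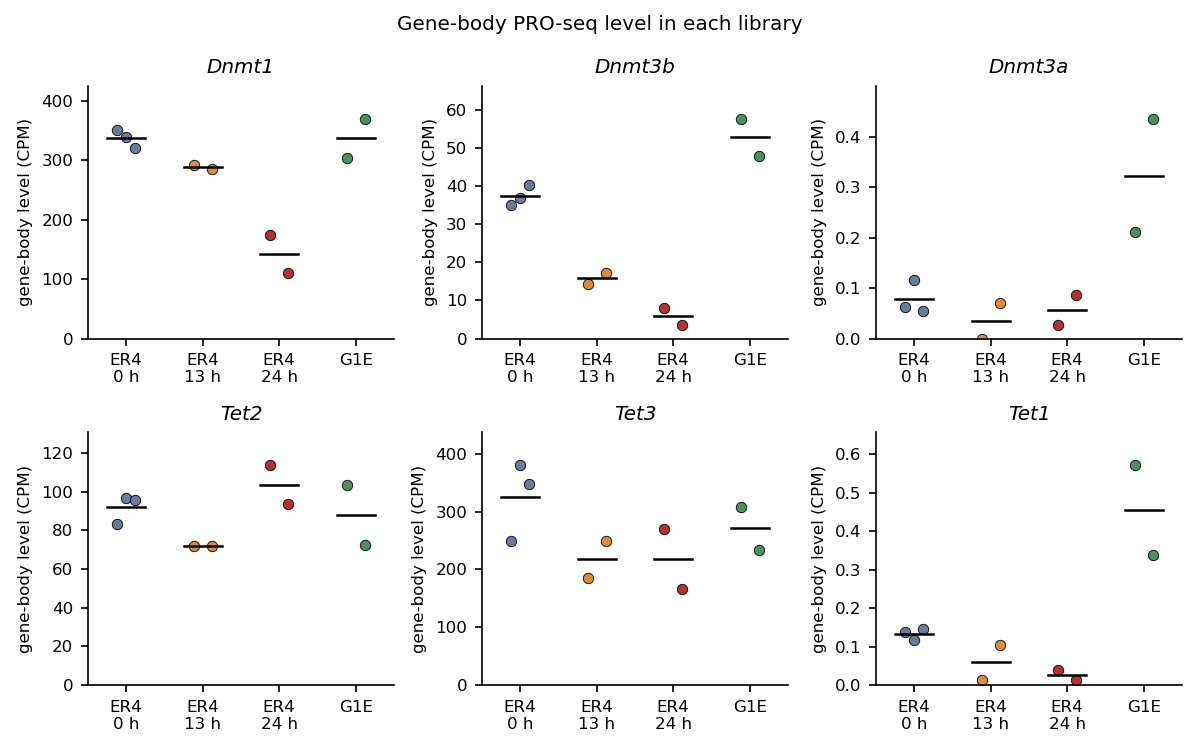
Gene-body PRO-seq level (CPM after TMM scaling, linear axis from 0) of the 6 genes in each of the 9 libraries, by group; points are libraries and lines are group means. Dnmt1 and Dnmt3b are lowest in the 24 h libraries, Tet2 and Tet3 overlap between 24 h and 0 h, and Dnmt3a and Tet1 stay under 0.6 CPM everywhere.

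Counted over the 6 members, 1 was called lower at 13 h against 0 h, 3 at 24 h against 0 h, 2 at 24 h against 13 h and 0 at 0 h against G1E, and none was called higher in any comparison. Among the 13825 genes tested, 20.9% were called lower and 20.1% higher at 13 h against 0 h, 30.7% lower and 29.0% higher at 24 h against 0 h, 12.5% lower and 11.7% higher at 24 h against 13 h, and 9.58% lower and 7.88% higher at 0 h against G1E. All 6 members passed the filter on low counts, Dnmt3a only through the G1E libraries. At 0 h against G1E, Tet1 reached an unadjusted p of 0.0133 in edgeR, and the test of Dnmt3a is not read. Lower calls at 24 h are common among all genes, so nothing is read from the count of 3 members. Their own values differ: at 24 h against 0 h the log2 fold change was -2.68 for Dnmt3b and -1.24 for Dnmt1, while Tet2 and Tet3 did not pass the test, and the difference between these genes was not tested in the fit. The comparisons with 0 h share the 0 h libraries.

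**Figure D2:**
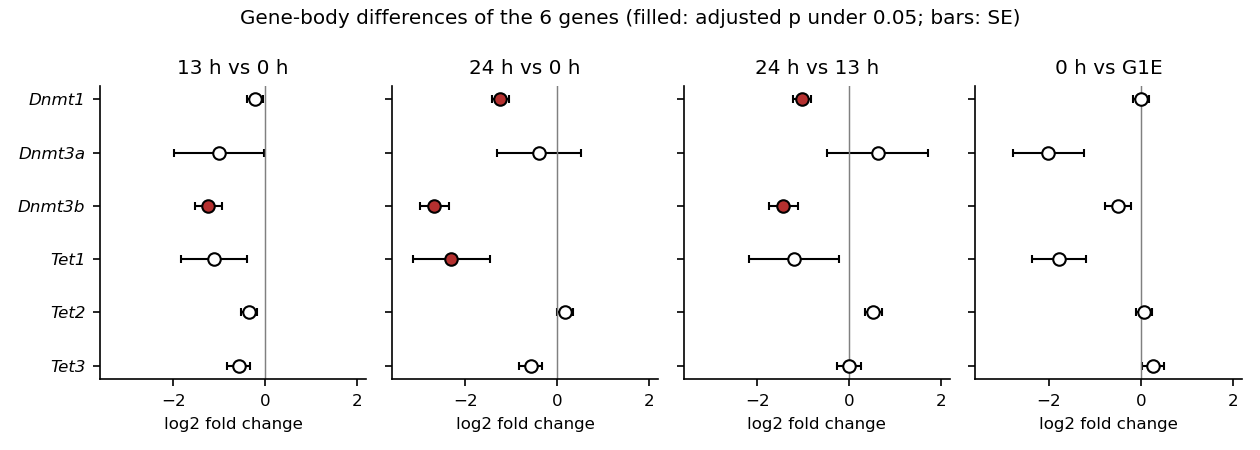
Log2 fold change of gene-body level with its SE for the 6 genes in the 4 comparisons; filled points had an adjusted p under 0.05 in edgeR. Dnmt3b lies at -1.25 at 13 h and -2.68 at 24 h against 0 h, Dnmt1 at -0.22 and -1.24, and the wide bars of Dnmt3a and Tet1 go with their few reads.

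Ratios between members within a library do not depend on scaling between libraries, and they were added after the values had been seen. Dnmt1 had 1.53 and 1.18 reads for each Tet2 read at 24 h, against 4.20, 3.504 and 3.35 at 0 h. It had 4.05 and 3.99 at 13 h, and 2.95 and 5.11 in G1E cells. Dnmt3b had 0.0712 and 0.0384 reads for each Tet2 read at 24 h, against 0.420, 0.381 and 0.421 at 0 h. It had 0.197 and 0.241 at 13 h, and 0.558 and 0.664 in G1E cells. Tet3 had 2.38 and 1.77 reads for each Tet2 read at 24 h, against 2.996, 3.93 and 3.64 at 0 h. It had 2.58 and 3.49 at 13 h, and 2.98 and 3.24 in G1E cells. The 24 h and 0 h libraries did not overlap in any of the 3 ratios (exact permutation test, two-sided p = 0.1 for each, the smallest that 10 arrangements allow). The log2 difference at 24 h against 0 h was -1.45 for Dnmt1, -2.96 for Dnmt3b and -0.77 for Tet3.

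Over the 9 libraries, the genes whose log2 level followed Dnmt1 most closely among 10587 ranked genes were Tbrg4 (Pearson r = 0.990), Tk1 (0.990), a thymidine kinase of the DNA synthesis phase, and Ece2 (0.987). For Dnmt3b they were Ctps (0.996), which makes CTP, Kit (0.995), the receptor for kit ligand, and Sptbn1 (0.993). For Tet2 they were Phip (0.943), Stim2 (0.927) and Scyl3 (0.922), and for Tet3 Rnf44 (0.975), Polrmt (0.968) and Obfc1 (0.956). For Dnmt3a the closest gene was Tmem132b (0.962) and for Tet1 Fstl4 (0.982), both with a handful of reads behind the member. The points share the 4 groups and the library depths, and the values describe likeness only.

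Of the 36 elements, 15 overlap a member and 21 have a member only as a nearest start. They comprise 8 whole peaks and 28 single strands of a peak, which share a source where both strands are listed. Enough reads for a test were present in 28, and some of the 36 overlap another gene (S1pr2, Dtnb or B230319C09Rik). At 13 h against 0 h, 6 elements were called lower and 3 higher, where 18.6% and 15.2% of all 35158 tested elements were. For 24 h against 0 h, 8 were called lower and 3 higher, where 29.5% and 22.7% of all were. At 24 h against 13 h, 3 were called lower and 0 higher (7.82% and 5.28% of all), and at 0 h against G1E 3 were called lower and 1 higher (12.1% and 7.18% of all). Nothing is read from these counts, and the description below is of single sites.

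The start elements of the methyltransferases fell with their gene bodies. The Dnmt1 start element on the strand of the gene (chr9:20754900-20757851, mm9) had 58.6, 57.6 and 52.8 CPM at 0 h, 41.1 and 40.0 CPM at 13 h, 29.9 and 24.1 CPM at 24 h, and 42.5 and 56.7 CPM in G1E cells. Its log2 difference was -0.47 ± 0.20 at 13 h against 0 h (adjusted p = 0.0798, edgeR), which was called with the title-number run as a block (-0.52, adjusted p = 0.0353, edgeR), and it fell at 24 h by 1.06 ± 0.20 (adjusted p = 6.62e-04, edgeR). The 13 h libraries lay between those of 0 h and 24 h without overlap. The opposite strand of the same peak fell at 24 h by 1.66 ± 0.31 (adjusted p = 5.82e-04, edgeR), with 5.59 and 4.56 CPM at 24 h against 15.8, 20.4 and 11.9 CPM at 0 h. An element 4.2 kb inside Dnmt1 (chr9:20751800-20753901, mm9), on the gene strand, had 8.88 and 7.70 CPM at 24 h against 16.8, 19.1 and 20.9 CPM at 0 h (log2 fold change -1.19 ± 0.25, adjusted p = 0.00146, edgeR).

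The Dnmt3b start element (chr2:153473800-153476301, mm9) had 29.5, 27.9 and 21.7 CPM at 0 h, 18.9 and 17.0 CPM at 13 h, 11.4 and 7.04 CPM at 24 h, and 27.9 and 24.1 CPM in G1E cells. The estradiol groups did not overlap, and the G1E libraries lay within the 0 h range. It fell at 24 h against 0 h by 1.51 ± 0.27 on the log2 scale (adjusted p = 3.94e-04, edgeR). At 13 h the difference of -0.55 ± 0.26 was not called (adjusted p = 0.114, edgeR), but it was with the title-number run as a block (-0.68, adjusted p = 0.0484, edgeR).

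The start elements of Tet2 and Tet3 were not called at 24 h against 0 h. The Tet2 start element (chr3:133205550-133208851, mm9) had 47.1, 48.7 and 39.6 CPM at 0 h, 27.3 and 31.4 CPM at 13 h, 36.5 and 27.7 CPM at 24 h, and 37.7 and 30.4 CPM in G1E cells. All 3 of the 0 h libraries lay above the other 6. It was called lower at 13 h (-0.62 ± 0.21, adjusted p = 0.0374, edgeR) and not at 24 h (-0.49 ± 0.21, adjusted p = 0.0669, edgeR). The 13 h call held in 8 of 16 alternatives and was lost without either 13 h library (adjusted p = 0.212 and 0.0844, edgeR), without 0 h replicate 1 (0.0655) or 2 (0.0898), without 24 h replicate 2 (0.0738) and without G1E replicate 2 (0.0890). The Tet3 start element on the gene strand (chr6:83390200-83393051, mm9) had 62.3, 81.5 and 95.7 CPM at 0 h, 50.4 and 67.9 CPM at 13 h, 92.4 and 79.2 CPM at 24 h, and 69.1 and 78.6 CPM in G1E cells. The 0 h libraries overlapped those of every other group, and the log2 difference at 24 h against 0 h was 0.10 ± 0.21 (adjusted p = 0.707, edgeR). Both 13 h libraries lay below those of 24 h and of G1E cells. At 24 h against 13 h the log2 difference was 0.54 ± 0.24 and was not called (adjusted p = 0.143, edgeR).

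The opposite strand of the Tet3 start peak runs in the direction of a second gene, B230319C09Rik, whose start lies 77 bases away. It had 5.29 and 3.82 CPM at 24 h against 2.65, 1.96 and 2.08 CPM at 0 h, and was called higher (log2 fold change 1.03 ± 0.34, adjusted p = 0.0201, edgeR). That call was lost without 24 h replicate 1 (adjusted p = 0.169), without 0 h replicate 2 (0.0638) and without 0 h replicate 3 (0.0545, all edgeR), as well as with total counts (0.0583) and the title-number block (0.0559).

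**Figure D3:**
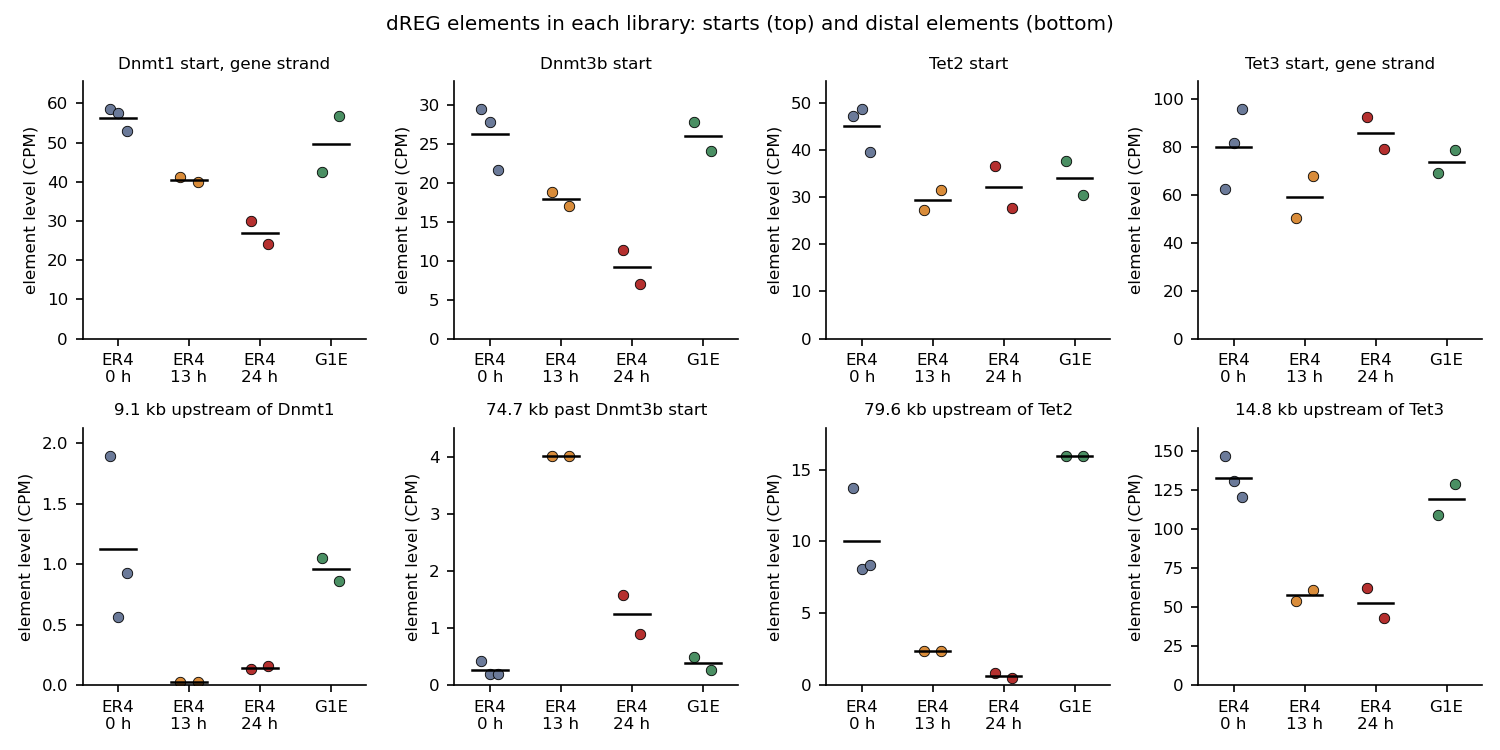
Level (CPM after TMM scaling, linear axis from 0) of 4 start elements and 4 distal elements in each library, by group; points are libraries and lines are group means. The starts of Dnmt1 and Dnmt3b step down over 0, 13 and 24 h, the element 74.7 kb past the Dnmt3b start peaks at 13 h, and the elements upstream of Tet2 and Tet3 are lower at 13 h and 24 h than at 0 h.

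Several distal elements were called, too. The element 79.6 kb upstream of Tet2 (chr3:133285700-133288201, mm9), whose neighbouring starts are Tet2 and Cxxc4, had 13.7, 8.11 and 8.38 CPM at 0 h, 2.37 and 2.35 CPM at 13 h, 0.856 and 0.465 CPM at 24 h, and 15.9 and 16.0 CPM in G1E cells. It fell by 2.09 ± 0.35 on the log2 scale at 13 h (adjusted p = 5.10e-04, edgeR) and by 3.91 ± 0.40 at 24 h (adjusted p = 4.15e-06, edgeR), both against 0 h. Between the 2 estradiol times it fell by 1.82 ± 0.40 at 24 h against 13 h (adjusted p = 0.0119, edgeR), a call lost without 24 h replicate 2 (adjusted p = 0.138, edgeR) and with the title-number block (adjusted p = 0.149, edgeR). The Tet2 gene body was not called in any of these comparisons. Which gene such an element acts on was not measured.

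The element 14.8 kb upstream of Tet3 (chr6:83404400-83408451, mm9), has Tet3 and Dguok as its neighbouring starts. It had 147, 131 and 121 CPM at 0 h, 53.9 and 61.1 CPM at 13 h, 62.4 and 43.2 CPM at 24 h, and 109 and 129 CPM in G1E cells. The libraries with estradiol all lay below those without it. It fell by 1.21 ± 0.21 on the log2 scale at 13 h (adjusted p = 6.11e-04, edgeR) and fell by 1.33 ± 0.21 at 24 h (adjusted p = 1.41e-04, edgeR) against 0 h, with -0.12 ± 0.22 between 24 h and 13 h (adjusted p = 0.745, edgeR).

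One distal element rose and then came down. The element 74.7 kb past the Dnmt3b start (chr2:153548700-153551051, mm9), between Dnmt3b and Mapre1, had 0.428, 0.186 and 0.189 CPM at 0 h, 4.02 and 4.03 CPM at 13 h, 1.58 and 0.900 CPM at 24 h, and 0.493 and 0.265 CPM in G1E cells. It rose by 3.90 ± 0.51 on the log2 scale at 13 h (adjusted p = 7.48e-05, edgeR) and by 2.21 ± 0.51 at 24 h (adjusted p = 0.00266, edgeR) against 0 h. At 24 h against 13 h it was called lower, with a log2 fold change of -1.69 ± 0.53 (adjusted p = 0.0482, edgeR), close to the threshold, and this call held in 5 of 17 alternatives with adjusted p-values up to 0.579. It was lost without either 13 h library, either 24 h library, either G1E library or 0 h replicate 2 (adjusted p between 0.0515 and 0.314, edgeR). A minus-strand element 63.4 kb past the Dnmt3b start was picked after its values were seen and had enough reads for the test only through 13 h, so it is described with no test. It had 10 and 18 reads at 13 h against 1 in each 0 h library. Its pooled level at 13 h was 15.0 times that of 0 h.

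**Figure D4:**
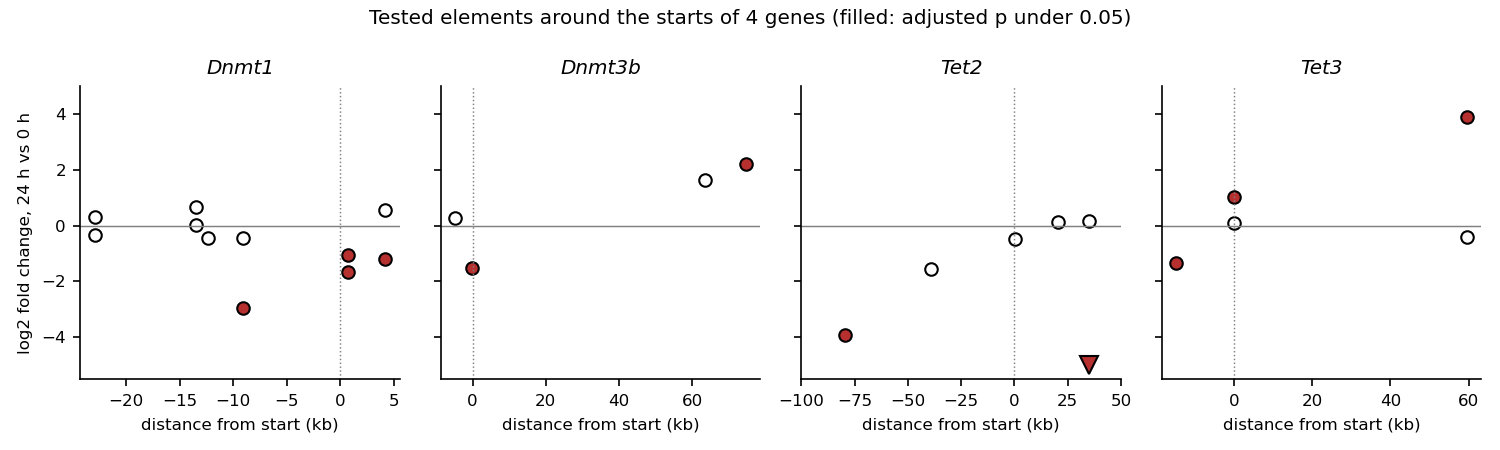
Log2 fold change at 24 h against 0 h of the tested elements near Dnmt1, Dnmt3b, Tet2 and Tet3, placed by the distance of their centre from the deposited start (kb, negative upstream in the direction of the gene); filled points had an adjusted p under 0.05 in edgeR, and the triangle is an element with 0 reads at 24 h, off the scale. Of the 11 tested elements near Dnmt1, 4 were called lower and 0 higher, beside 29.5% and 22.7% of all tested elements. Those 4 include both strands of the start peak. The elements called near Dnmt3b and Tet3 lie on both sides of 0. Some filled points had enough reads for the test only through the group where they are high, so nothing is read from these counts.

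Further sites were picked after their values were seen, and several had enough reads for the test only through the group where they are high, so they are described with no test. Inside Tet2, 43.3 percent of the way along the gene and on its opposite strand (chr3:133171600-133173251, mm9), an element had 31, 18 and 52 reads at 0 h, 0 and 0 at 13 h, 0 and 0 at 24 h, and 5 and 1 in G1E cells. With a floor of 3 reads over the group, it was at least 20.98-fold lower at 13 h than at 0 h and at least 19.1-fold lower at 24 h than at 0 h. Upstream of Dnmt1, 9.1 kb from its start and beyond the deposited upstream start, a plus-strand element (chr9:20765850-20766551, mm9) had 71, 18 and 49 reads at 0 h, 1 and 1 at 13 h, 5 and 5 at 24 h, and 47 and 13 in G1E cells. Its pooled level at 0 h was 43.0 times that of 13 h, which rests on 1 read in each 13 h library. The log2 fold change of this element at 24 h against 0 h was -2.94. In the opposite direction, an antisense element 75.1 percent along Tet3 (chr6:83331800-83332451, mm9) had 2, 3 and 3 reads at 0 h, 15 and 10 at 13 h, 38 and 33 at 24 h, and 2 and 0 in G1E cells. Its log2 fold change at 24 h against 0 h was 3.88.

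The 3 elements called lower at 0 h against G1E were also picked by their values, and are described likewise. The element 37.9 percent along Tet1 (chr10:62313450-62314951, mm9) had 10, 5 and 6 reads at 0 h against 71 and 23 in G1E cells (log2 fold change -3.12). The element 39.2 kb upstream of Tet2 (chr3:133245950-133247151, mm9) had 14, 3 and 10 reads at 0 h against 92 and 19 in G1E cells (-2.92). These Tet1 and Tet2 elements had enough reads for the test only through G1E. The element inside Dtnb, with Dnmt3a as its other neighbour (chr12:3759050-3760601, mm9), had 33, 8 and 10 reads at 0 h against 194 and 29 in G1E cells (-2.86). In all 3 the G1E libraries lay above every 0 h library, but they were picked by this difference, so nothing is read from it. Without G1E replicate 1 the calls did not hold. The log2 fold changes were then -3.09 for the Tet1 element, -2.50 for the Tet2 element and -2.13 for the Dtnb element. The sum of 4 megakaryocyte markers was 23.4 to 32.3 CPM at 0 h against 47.6 to 48.5 CPM in G1E cells. The mast cell sum was also higher in G1E cells, through Kit (mean 562 CPM at 0 h and 1007 CPM in G1E cells) and Gata2 (154 and 227 CPM). The other mast cell markers had lower means in G1E cells, namely Cpa3 (53.5 and 41.0 CPM) and Ms4a2 (3.19 and 0.143 CPM). The part of either sum in these differences was not tested.

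The balance between polymerase at the start and in the body was compared as the log2 ratio of start element CPM to gene-body CPM, tested with limma over 7500 genes. The start elements of Dnmt3b and Tet2 are whole peaks not split by strand, which can hold reads antisense to the gene. Those of Dnmt1 and Tet3 hold the gene strand only, so the ratios of these genes are not alike. For Dnmt3b this log2 ratio was -0.24, -0.40 and -0.89 at 0 h, 0.41 and -0.021 at 13 h, 0.50 and 0.97 at 24 h, and -1.04 and -0.99 in G1E cells. The 24 h libraries lay above all others. The ratio was 1.25 ± 0.24 higher at 24 h than at 0 h (SE, adjusted p = 0.00343, limma), so body reads fell by more than the reads of the whole start peak. The median difference of all genes was 0.17 in this comparison. At 13 h against 0 h the Dnmt3b ratio differed by 0.71 ± 0.24 and was not called (adjusted p = 0.109, limma).

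For Tet2 the log2 ratio was -0.82, -0.99 and -1.27 at 0 h, -1.40 and -1.19 at 13 h, -1.63 and -1.76 at 24 h, and -1.45 and -1.25 in G1E cells. The 24 h libraries were the lowest of the 9, with a difference of -0.67 ± 0.18 from 0 h (adjusted p = 0.0187, limma). For Tet3 the log2 ratio was -2.00, -2.22 and -1.86 at 0 h, -1.88 and -1.88 at 13 h, -1.55 and -1.06 at 24 h, and -2.16 and -1.57 in G1E cells, with a difference of 0.72 ± 0.22 at 24 h from 0 h (adjusted p = 0.0312, limma). Dnmt1 differed by 0.21 ± 0.16 (adjusted p = 0.345, limma), close to the median of all genes. The Tet2 call was lost without 24 h replicate 1 (adjusted p = 0.0699) or 2 (0.218) and without G1E replicate 2 (0.0548), and the Tet3 call without 24 h replicate 2 (0.125) or any of the 0 h libraries (up to 0.0832, all limma). The Tet2 call was also lost with total counts (-0.37, adjusted p = 0.211, limma), and with the title-number block neither Tet2 (adjusted p = 0.125, limma) nor Tet3 (adjusted p = 0.106, limma) was called. With total counts the Dnmt1 ratio was called (0.51, adjusted p = 0.0407, limma). The Dnmt3b call held in all 14 alternatives. Of the 4 members with a start element, 3 were called in either direction at 24 h against 0 h, where 34.6% of all genes were. At 13 h against 0 h (7.47% of all genes), 24 h against 13 h (6.56%) and 0 h against G1E (1.11%) 0 members were called by limma, with unadjusted p-values under 0.05 for Dnmt3b (0.0141) at 13 h against 0 h and for Dnmt1 (0.0266) and Tet3 (0.0404) at 24 h against 13 h.

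**Figure D5:**
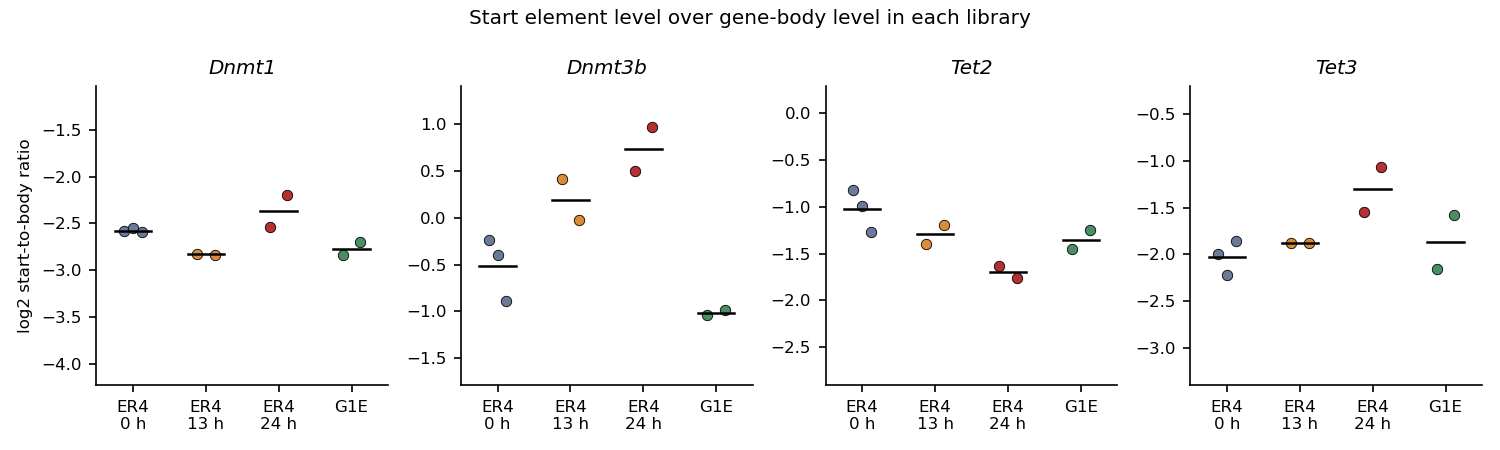
Log2 ratio of start element level to gene-body level for the 4 members with a start element, in each library; points are libraries, lines are group means, and all panels span the same range. The start element is a whole peak for Dnmt3b and Tet2 and the gene strand only for Dnmt1 and Tet3. The 24 h libraries are the highest for Dnmt3b and Tet3 and the lowest for Tet2.

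Genes that act with these enzymes were taken from 7 lists, of which 49 of 51 genes could be tested. Of these 49, 20 were called lower and 12 higher at 24 h against 0 h, beside 30.7% and 29.0% of all genes. Of 8 genes for copying methylation at replication, 5 were called lower and 2 higher, with a median log2 fold change of -1.85 beside -0.07 for all genes. Uhrf1, which brings Dnmt1 to newly copied DNA, averaged 29.6 ± 10.5 CPM at 24 h (SD, n = 2) and 175 ± 15.4 CPM at 0 h (SD, n = 3), a log2 fold change of -2.57 (adjusted p = 1.18e-05, edgeR). Hells, a remodeller needed for methylation of repeats, averaged 47.8 ± 7.88 CPM at 24 h (SD, n = 2) and 263 ± 12.4 CPM at 0 h (SD, n = 3), a log2 fold change of -2.46 (adjusted p = 7.70e-07, edgeR). Pcna, the sliding clamp of replication, fell by 2.19 (adjusted p = 2.95e-05, edgeR).

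The 9 genes listed for supply of the methyl donor S-adenosylmethionine had a median log2 fold change of -1.81, with 6 called lower and 1 higher. Mat2a, which makes S-adenosylmethionine from methionine, averaged 36.5 ± 14.9 CPM at 24 h (SD, n = 2) and 327 ± 60.5 CPM at 0 h (SD, n = 3), a log2 fold change of -3.17 (adjusted p = 2.59e-05, edgeR). Mthfd1, a folate enzyme of one-carbon metabolism, fell by 3.20 (adjusted p = 2.20e-05, edgeR), and Shmt1, which feeds that pathway from serine, fell by 3.04 (adjusted p = 3.03e-04, edgeR).

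Of 8 genes of 2-oxoglutarate and 2-hydroxyglutarate metabolism, 5 were called lower and 1 higher (median -1.03). Idh3a, a mitochondrial source of 2-oxoglutarate, fell by 2.25 on the log2 scale (adjusted p = 1.99e-06, edgeR). Idh2, another mitochondrial source of 2-oxoglutarate, was nearly silent in G1E-ER4 but not in G1E cells. Its level ran from 0.0904 to 0.189 CPM at 0 h, from 0.117 to 0.136 CPM at 13 h and from 0.0124 to 0.0804 CPM at 24 h, and was 36.4 and 39.7 CPM in G1E cells. The log2 fold change was -7.89 ± 0.41 at 0 h against G1E (adjusted p = 1.08e-06, edgeR) and -1.77 ± 0.59 at 24 h against 0 h (adjusted p = 0.0246, edgeR), with very low levels on both sides at 24 h against 0 h. Of 6 tested TET partners and CXXC proteins, 4 were called higher and 1 lower (median 0.67). Cxxc5, which binds unmethylated CG sites, fell by 1.90 (adjusted p = 9.47e-04, edgeR), while Kdm2a, a CXXC histone demethylase, rose by 1.18 (adjusted p = 1.29e-05, edgeR) and Ogt, a sugar transferase that binds TET proteins, rose by 0.77 (adjusted p = 4.84e-04, edgeR).

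Of 10 genes for removal of oxidised cytosine and base excision, 2 were called lower and 1 higher (median 0.06). The glycosylase gene Neil2 rose by 2.09 on the log2 scale (adjusted p = 6.31e-05, edgeR), Gadd45b fell by 1.62 (adjusted p = 0.0253, edgeR), and Tdg, the glycosylase that excises oxidised methylcytosine, fell by 0.74 (adjusted p = 0.00102, edgeR). Of 7 MBD and Zbtb family genes, most of them readers of methylated DNA, 3 were called higher and 1 lower (median -0.09). The MBD family gene Mbd3 fell by 1.504 (adjusted p = 5.22e-05, edgeR) and Mbd2 rose by 1.10 (adjusted p = 3.24e-05, edgeR). The tested Dnmt relative, Trdmt1, a tRNA methyltransferase, was not called (-0.32, adjusted p = 0.420, edgeR). At 13 h against 0 h, 13 of the 49 genes were called lower and 8 higher, beside 20.9% and 20.1% of all genes, and at 0 h against G1E 2 were called lower and 0 higher, beside 9.58% and 7.88%. When libraries were scaled by total counts the median of all genes moved by -0.39 at 24 h against 0 h, so the smaller rises named here are relative to TMM scaling.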

How the data were processed

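PRO-seq was measured in 9 libraries of 4 groups. The authors deposited raw read counts per gene body and raw read counts per dREG element, per the file headers, and the position of an element along a gene as a percent, as deposited. Reads were aligned with BWA to mm9, per the submitters' processing notes. Its version, how reads were counted, the gene models and whether strand was used were not given in the sources used here, so overlapping and antisense genes are uncertain. Columns were tied to samples by their title numbers.

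Counts were scaled by TMM, filtered with filterByExpr and tested over all genes or all elements with edgeR 4.0.16 (glmQLFit, robust, 4 group means, R 4.3.3), with Benjamini-Hochberg adjustment and a threshold of 0.05. The SE is the log2 fold change over the root of F. The start-to-body ratio used a prior count of 0.5, a mean count of at least 50 in both tables, and limma 3.58.1. DESeq2 1.42.0 was an alternative. Other alternatives were scaling, the filter, a replicate or title-number block and leaving out each library. The fits were also run on simulated data with few changed features and an assumed spread between libraries. This does not show how they perform on the present data, where many genes changed. Floors and pooled ratios make no allowance for the spread between libraries, and PCR reads without molecular identifiers are not independent.

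The 6 members and all lists were chosen with earlier results of these data known. Elements given per library were the starts and, for each member, up to 3 others with the largest change among those called at 24 h against 0 h with a mean count of at least 50. Pathway genes named were up to 3 of each list by the same order, without the count minimum; a few list members fitting this rule are not reported here. RefSeq promoters are of GRCm38.p6, and no coordinates were converted between builds.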

Additional observations from a re-analysis of the deposited data

How the results depend on the processing

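Dnmt1 and Dnmt3b at 24 h against 0 h were called in all 15 alternatives, with log2 fold changes of -1.63 to -0.94 for Dnmt1 and -3.38 to -2.20 for Dnmt3b. The number of members called at 13 h against 0 h was 3 with total counts, where Tet2 and Tet3 joined Dnmt3b, and 0 to 2 when 1 library was left out. At 24 h against 13 h it was 0 with the title-number block and 1 to 3 with 1 library left out, and at 0 h against G1E it was 0 to 1. The number of member elements called at 24 h against 13 h was 1 with total counts, 0 with the title-number block, 1 with the gene-body scaling and 0 to 3 with 1 library left out, and at 0 h against G1E it was 0 to 5. The number of start-to-body ratios called at 24 h against 0 h was 1 with the title-number block and 1 to 3 with 1 library left out. The cause of these differences was not tested. With total counts Tet3 was called at 24 h against 0 h (-0.96, adjusted p = 0.00601, edgeR).

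Some uncalled differences changed sign, those of Dnmt3a and Tet1 over wide ranges. With total counts Tet2 at 24 h against 0 h was -0.21, Tet3 at 24 h against 13 h was -0.29 and Dnmt1 at 0 h against G1E was 0.017, and Dnmt1 there was 0.043 without the filter. With the title-number block Dnmt3a at 24 h against 0 h was 0.063, Tet3 at 24 h against 13 h -0.16, Dnmt1 at 0 h against G1E 0.072, Tet2 at 0 h against G1E -0.11, the Tet3 start element at 24 h against 0 h -0.16 and the Tet3 ratio at 0 h against G1E 0.30. With 1 library left out, values ran from -1.44 to 0.19 (Dnmt3a, 24 h against 0 h), -0.44 to 5.31 (Dnmt3a, 24 h against 13 h), -0.41 to 0.31 (Tet3, 24 h against 13 h), -2.19 to 0.87 (Tet1, 24 h against 13 h), -0.13 to 0.15 (Dnmt1, 0 h against G1E), -0.17 to 0.35 (Tet2, 0 h against G1E), -0.055 to 0.37 (Tet3 start element, 24 h against 0 h) and -0.46 to 0.13 (Tet3 ratio, 0 h against G1E).

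Replicate numbers were not taken to pair the libraries. The correlation of same-numbered deviations was 0.60 between 0 h and 13 h, where the numbers coincide with runs of title numbers, but 0.0012 between 0 h and 24 h and -0.24 between 13 h and 24 h. With the replicate block Tet1 at 24 h against 0 h was no longer called (adjusted p = 0.0943, edgeR), Tet3 at 24 h against 13 h was -0.0032 and Dnmt1 at 0 h against G1E was 0.027. With the crossed replicate block, added after seeing the data, Tet3 at 24 h against 13 h was -0.016. With 2 or 3 libraries a group and few reads for Dnmt3a, Tet1 and several elements, small differences in them were not detectable at this depth.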
